A study of Mus musculus with 3 samples.

Results

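Setd1a peaks at 10 genes of the Myc, Max and Mnt transcription factor network, *Mnt*, *Myc*, *Mycn*, *Mycl*, *Max*, *Mxd1*, *Mxd3*, *Mxd4*, *Mlx* and *Mga*, were described in cultured quiescent adult neural stem cells (NSCs). The genes were chosen by name as members of one network and partly by a measured value, because *Mnt* carried one of the widest peaks of the experiment, so the width at *Mnt* and the number of genes with a peak are given as a description and were not tested. They were 10 of 21938 protein-coding genes of the GENCODE M21 annotation, and 3 of 6969 peaks lay at them. The samples were 2 Setd1a CUT & RUN libraries from independent cultures and 1 library made with a rabbit IgG control antibody, all from NSCs kept for 5 days in quiescence medium. The cells came from the dentate gyrus of mice aged 7 to 8 weeks with the alleles Hopx-CreERT2, Setd1afl/fl and H2B-GFP. Hopx-CreERT2 is a tamoxifen-dependent Cre recombinase expressed from *Hopx*, and the floxed *Setd1a* alleles stay intact unless Cre acts on them. The cells are labelled WT and as neural progenitor cells (NPCs), and all 3 libraries shared this genotype and the medium, which held BMP4 and FGF2 at 20 ng/ml each and no EGF. Expanded cultures that enter quiescence under BMP4 are a model of quiescent stem cells and not the tissue itself. CUT & RUN tethers a nuclease to antibody-bound chromatin inside permeable cells, and the DNA it frees around the protein is sequenced. Each peak found in both Setd1a libraries was available as an interval in mm10 coordinates. The list gives no height per peak and does not separate the libraries, so no spread between replicates could be computed, and library depth is unknown.

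Max is the common partner of the network. Myc, Mycn and Mycl pair with Max to bind E-boxes and activate genes for growth and proliferation, whereas Mnt and the Mxd proteins pair with Max at the same sites and recruit Sin3 and histone deacetylases to repress them. Mlx is a second common partner that links part of this family to nutrient-sensing factors, and Mga brings Max into a Polycomb complex. Setd1a itself is a methyltransferase for lysine 4 of histone H3, a mark found at active promoters. The balance of Myc and its antagonists is known to bear on whether cells stay quiescent or enter the cell cycle.

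*Mnt* carried 2 of the 3 peaks and *Mycl* the other. A peak was counted at a promoter if it came, by its nearer edge, to within 3000 bp of a transcription start site (TSS) that GENCODE gives for the gene. By this measure 2 of 10 network genes had a promoter peak, beside 23.0% of all protein-coding genes (5036 of 21938). A peak over a TSS was found at 1 of the 10, *Mnt*, beside 16.4% of protein-coding genes, and a peak in the gene at 2, beside 23.0%. The members named above were chosen with these peaks in view and are few, so nothing is read from how these shares compare. *Myc*, *Mycn*, *Max*, *Mxd1*, *Mxd3*, *Mxd4*, *Mlx* and *Mga* had no promoter peak. Of 53 annotated TSSs of the 10 genes, 1 was covered by a peak.

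The stretches of peak sequence below are those that hold the sites described in the text, and one sequence from a promoter without a peak is set beside them. CACGTG is the E-box to which dimers of Max bind, GGGCGG is the GC box of Sp1-like factors, and CCAAT is the box of NF-Y. Capitals mark the E-box, the GC box (written CCGCCC where it lies on the minus strand) and, in the *Mycl* peak, the NF-Y box, which lies on the minus strand and reads ATTGG. The 4 stretches at *Mnt* are the 240 bp before its TSS (chr11:74830680-74830919), the end of exon 1 with the start of intron 1 (chr11:74831342-74831461), a part of intron 1 (chr11:74832248-74832367) and the last 150 bp of the second peak (chr11:74838368-74838517), all on the plus strand of mm10. The *Mycl* peak is given whole (chr4:122997005-122997276, plus strand). The *Mxd4* stretch (chr5:34187894-34187959, minus strand) lies in a RefSeq promoter of GRCm38.p6 and outside all peaks.
Mnt upstream: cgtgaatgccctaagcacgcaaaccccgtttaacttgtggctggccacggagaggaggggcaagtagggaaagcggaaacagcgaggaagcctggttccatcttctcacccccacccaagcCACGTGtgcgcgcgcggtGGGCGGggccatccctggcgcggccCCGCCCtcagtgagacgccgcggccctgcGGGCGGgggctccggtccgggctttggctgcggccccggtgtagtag
Mnt exon 1 end: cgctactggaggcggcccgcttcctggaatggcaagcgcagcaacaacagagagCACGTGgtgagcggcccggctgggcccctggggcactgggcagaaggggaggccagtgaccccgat
Mnt intron 1: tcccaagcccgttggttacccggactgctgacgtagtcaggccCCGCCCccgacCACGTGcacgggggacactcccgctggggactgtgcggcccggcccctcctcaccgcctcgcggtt
Mnt second peak: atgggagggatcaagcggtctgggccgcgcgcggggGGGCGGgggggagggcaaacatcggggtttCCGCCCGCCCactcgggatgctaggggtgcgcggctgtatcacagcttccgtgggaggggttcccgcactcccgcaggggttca
Mycl peak: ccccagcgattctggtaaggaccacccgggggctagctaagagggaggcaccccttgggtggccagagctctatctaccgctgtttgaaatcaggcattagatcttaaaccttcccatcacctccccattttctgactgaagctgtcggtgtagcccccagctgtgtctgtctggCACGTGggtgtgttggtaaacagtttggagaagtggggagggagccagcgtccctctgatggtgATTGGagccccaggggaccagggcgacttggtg
Mxd4 promoter: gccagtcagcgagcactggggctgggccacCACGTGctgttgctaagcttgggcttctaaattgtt

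*Mnt* encodes the Max partner that is present in most cells and opposes Myc. The gene lies on the plus strand at chr11:74830920-74845725, and its start was covered by a peak of 2836 bp (chr11:74829644-74832479). The peak reached from position -1276 to position 1559 relative to the TSS, negative values being upstream, and its midpoint lay 141 bp downstream. It covered all 482 bp of exon 1, of which 409 bp are untranslated and 73 bp code for protein, and 55.0% of its length was inside the gene. No other gene had a TSS within 3000 bp of it, so the interval could be given to *Mnt* alone.

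By width this peak was the 5th of 6969, wider than 99.9% of peaks. All peaks ran from 233 to 6529 bp with a median of 465 bp. Of the 4 wider intervals, 2 lay on the mitochondrial genome (6529 and 5375 bp), 1 on chromosome 17 at the noncoding gene Gm26917 (5805 bp) and 1 on chromosome 9 at *Ppp2r3d* (3140 bp). Among the 5036 protein-coding genes with a promoter peak, the widest one was narrower than that of *Mnt* in 99.96%, and the median was 552 bp. The next narrower interval was 2530 bp wide, beside Gm21738 on chromosome 14. Repeats, the lower-case bases of the reference, made up 84.9% of that interval and 5.43% of the *Mnt* peak.

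**Figure D1:**
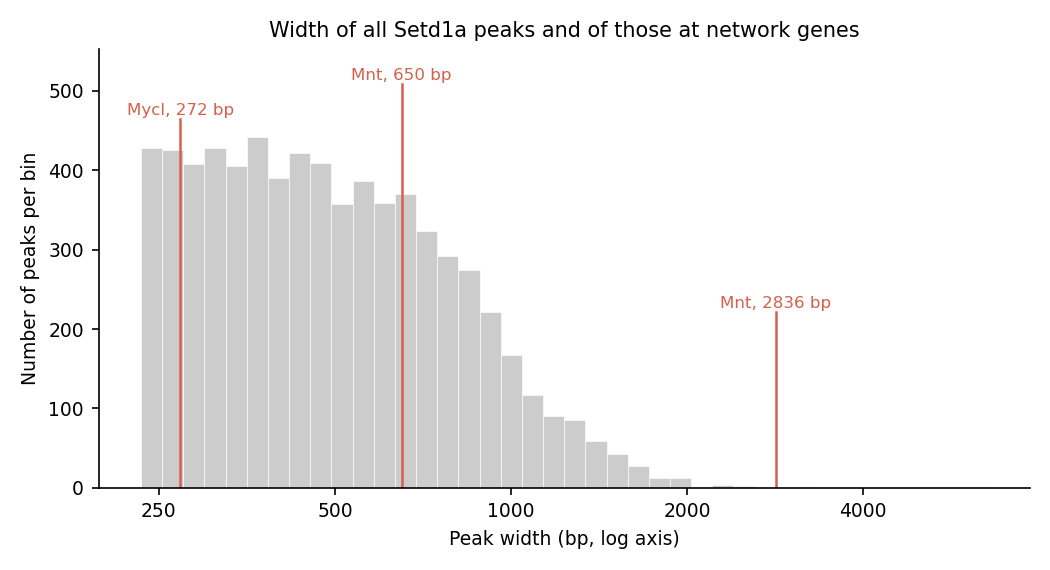
Number of Setd1a peaks (vertical axis) by width in bp (horizontal log axis) for all 6969 peaks, as grey bars, with vertical lines for the 3 peaks at network genes, whose heights carry no value. The 2836-bp peak at Mnt lies past the bulk of the distribution, the 650-bp peak above its median of 465 bp and the 272-bp peak at Mycl near its narrow end.

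A second peak of 650 bp lay inside *Mnt* at chr11:74837868-74838517, from 6948 to 7597 bp past the gene start. It was wider than 71.4% of peaks and overlapped no exon. Its nearer edge was 400 bp from the TSS of Mnt-202, a shorter protein-coding transcript that begins at 74837468, and 1542 bp from that of Mnt-203, a transcript with a retained intron. *Mnt* thus had 2 promoter peaks, and 469 protein-coding genes (2.14%) had 2 or more. Mnt-202 and Mnt-203 are outside the basic transcript set. With basic transcripts only, the second peak is therefore not a promoter peak. Neither of these internal TSSs was covered by a peak, and no reading of transcript use was available in these data.

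Both *Mnt* peaks stood somewhat above the middle of all peaks in CpG and GC content. The wide peak had 62.0% GC, 195 CpG dinucleotides and an observed to expected CpG ratio, the number of CpG over that given by its C and G content, of 0.719. The narrower one had 65.2% GC, 48 CpG and a ratio of 0.714. All 6950 peaks on chromosomes 1 to 19, X and Y had medians of 58.0% GC and a ratio of 0.670, so that 55.0% of them had a lower ratio than the wide peak and 54.5% a lower ratio than the narrow one. In GC content 63.5% of all peaks were lower than the wide peak and 73.8% lower than the narrow one. At starts of protein-coding genes with a promoter peak, over 500 bp on each side, the median ratio was 0.773.

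Within the wide peak CpG was unevenly spread. The first 300 bp, from -1276 to -977, held 2.67 CpG per 100 bp, whereas the bin from -76 to 223 held 8.67 and the next, up to 523, held 9. Over the whole peak there were 6.88 CpG per 100 bp, beside a median of 5.56 over all peaks. CpG density was thus highest over the TSS and exon 1 and lowest at the upstream edge, and rose again to 8 CpG per 100 bp in intron 1 (1124 to 1423).

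**Figure D2:**
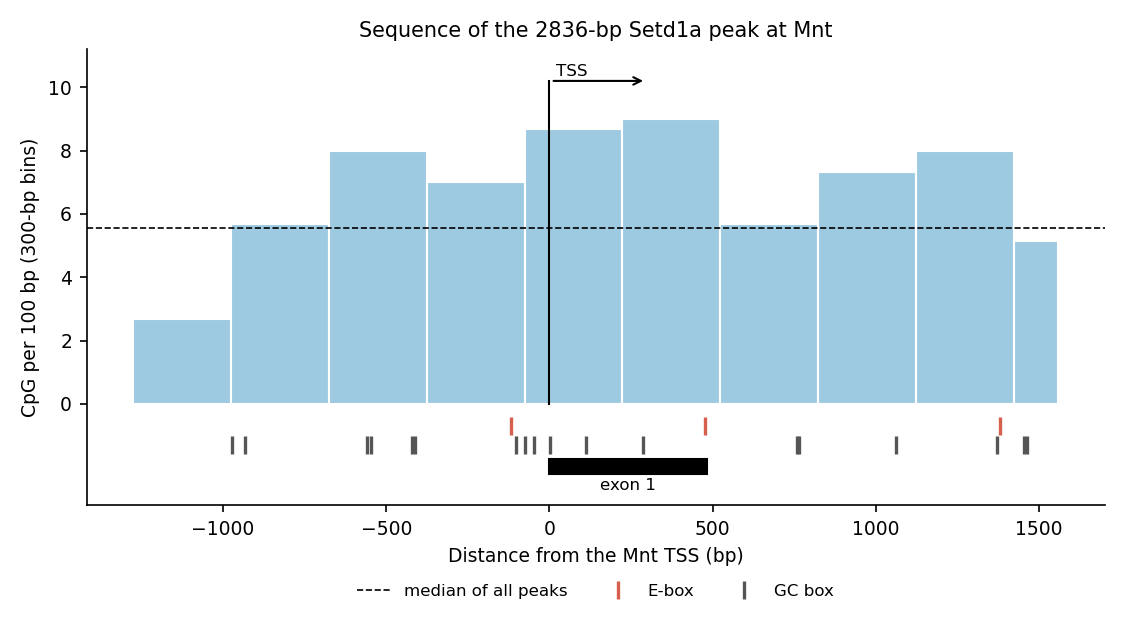
CpG dinucleotides per 100 bp (vertical axis) in bins of 300 bp, the last of 136 bp, along the 2836-bp peak at Mnt by distance from its TSS in bp (horizontal axis), with the median over all peaks as a dashed line. Ticks under the bars mark the 3 E-boxes and 18 GC boxes, and the black bar is exon 1, the 482 bp after the TSS, over which the bars reach their highest value of 9.

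The wide *Mnt* peak held 3 CACGTG sites, at -119, 476 and 1382 bp from the TSS. The first lay just upstream of the TSS and the last in intron 1. The middle one ended on the last base of exon 1, in coding sequence. Per kb, the peak had 1.06 CACGTG sites, and all peaks together 0.279. Of all 6950 peaks, 26 (0.374%) held 3 or more, and among the 13 that were at least 2000 bp wide, 6 held at least 1 and 2 held 3 or more. A wide interval has more positions at which a hexamer can occur, and none of the 3 sites lay in the central 300 bp of the peak, the window used for all peaks, in which CACGTG was present in 7.45% of them. Over whole peaks the share was 12.9%.

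GC boxes were counted over the whole of each *Mnt* peak. The wide peak held 18 GGGCGG on either strand, or 6.35 per kb, and the second peak 4, or 6.15 per kb, beside 2.99 per kb over all peaks, those away from promoters included. In their central 300 bp the wide peak held 2 and the second peak 0, a window in which 59.9% of all promoter peaks held at least 1. In the sequence of the second peak the run CCGCCCGCCC was counted as 2 overlapping GC boxes. The second peak held no CACGTG. Of the remaining letters searched, CACGCG, another form of the E-box, occurred 2 times and CCAAT 2 times in the wide peak, while CCGGAAG (ETS factors) and GCGCATGC (NRF1) were not among its letters. Over the central 300 bp of all peaks the shares were 44.7% for GGGCGG, 13.7% for CACGCG, 33.2% for CCAAT, 10% for CCGGAAG and 3.47% for GCGCATGC. These are matches of letters, and binding of the factors was not measured.

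*Mycl*, the Myc paralog first found in lung cancer, lies on the plus strand at chr4:122995652-123002485 and had 1 peak of 272 bp (chr4:122997005-122997276). The peak began 1353 bp and ended 1624 bp past the gene start, 906 bp downstream of the nearest TSS (Mycl-201, at 122996099). None of the 5 TSSs of *Mycl* was covered. It was narrower than most peaks, wider than 11.1%. Apart from 14 bp of coding sequence it was intronic, and no other gene had a TSS within 3000 bp.

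The *Mycl* peak was of another composition than those at *Mnt*. Its GC content was 57.7%, but it held 7 CpG and its observed to expected ratio was 0.312, and 30.5% of all peaks had a lower ratio. At the gene start of *Mycl* itself, measured over 500 bp on each side, the ratio was 0.754, and that CpG-rich stretch carried no peak. The peak held 1 CACGTG, 1528 bp past the gene start and in its central 300 bp, and 1 CCAAT at 1592 bp. It held no GGGCGG. With a minimum width of 300 bp this interval drops out, which leaves *Mnt* as 1 network gene with a promoter peak.

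**Figure D3:**
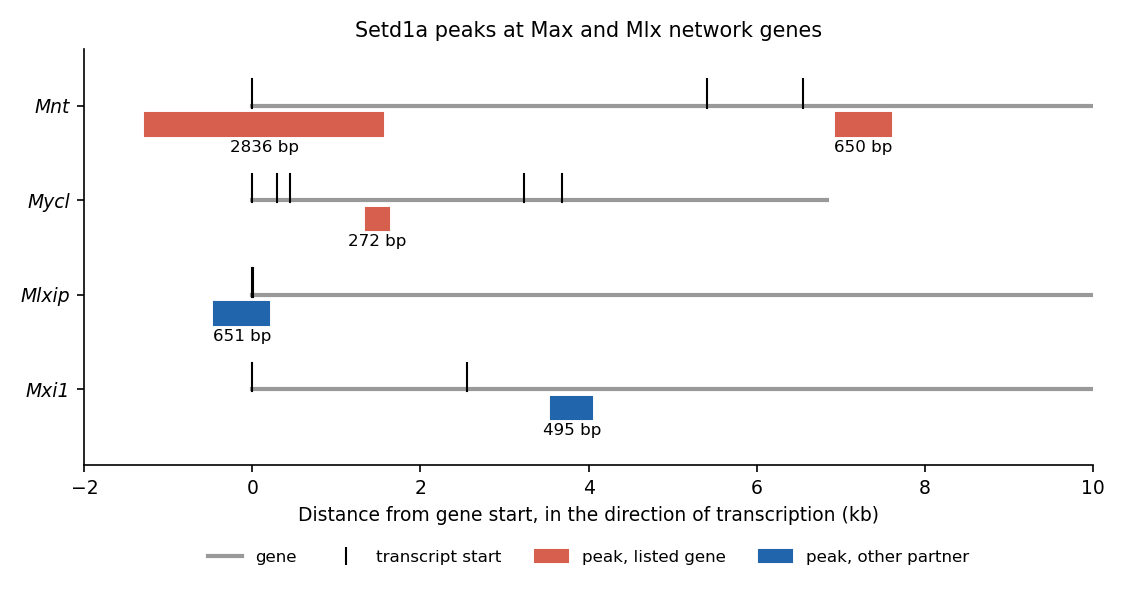
Peaks (filled boxes with their width in bp) at Mnt, Mycl and the further partners Mlxip and Mxi1, drawn to scale by distance from the gene start in kb in the direction of transcription (horizontal axis), with genes as grey lines cut at 10 kb and transcript starts as black ticks. The peaks of Mnt (2836 bp) and Mlxip (651 bp) cover the gene start, whereas those of Mycl and Mxi1 begin 1353 and 3553 bp past it.

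The wide *Mnt* peak lay over a TSS, at 0 bp. Closest to the edge of the 3000 bp window on its inner side were the second peak of *Mnt* at 400 bp from a TSS and that of *Mycl* at 906 bp, and on its outer side those at 5581 bp (*Mxd4*) and 5817 bp (*Mlx*). Distances below are from the nearest annotated TSS of the gene to the nearer edge of the nearest peak. Over all protein-coding genes they had quartiles of 5744, 56041 and 228642 bp. The 10 network genes had a median of 22189 bp, and 3 of them, *Mxd1*, *Myc* and *Max*, were farther from a peak than the median of all genes. No replicate error can be put on a distance, and no order is read from small differences between them.

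The proto-oncogene *Myc* (chr15:61985391-61990374, plus strand) had 1 peak within 500 kb. It lay downstream, 91456 bp from the nearest of 6 TSSs of *Myc* and 93487 bp from the gene start, at chr15:62078878-62079983. This interval of 1106 bp, wider than 94.7% of all peaks, was inside *Pvt1*, the long noncoding RNA gene next to *Myc*, 262 bp from the TSS of the noncoding Gm27782. Its GC content was 52.6% and its observed to expected CpG ratio 0.131, the lowest among the nearest peaks of the 10 genes. At the start of *Myc* the ratio was 0.777. Of all protein-coding genes, 59.0% had a peak nearer than *Myc*. No other protein-coding gene lay within 500 kb of *Myc*.

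*Mycn*, the Myc paralog of neural progenitors in development, lies on the minus strand at chr12:12936093-12941914. Its nearest peak was 35709 bp from a TSS, a 398-bp interval (chr12:12904510-12904907) over the start of 4930519A11Rik, downstream of *Mycn*. From the gene start of *Mycn* this peak was 37007 bp away. Within 500 kb there were 2 peaks and 2 other protein-coding genes, neither of which had a promoter peak. The *Myc* and *Mycn* loci were thus the 2 with the fewest peaks around them among the 10 genes, and the 2 with the fewest other genes.

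*Max* (chr12:76937269-76962201, minus strand), on whose protein most of the network depends, was the farthest from a peak of the 10 genes. The distance was 101929 bp from the start of Max-206, a transcript annotated for nonsense-mediated decay, and 124136 bp from the gene start, to a 784-bp peak (chr12:76837282-76838065) over the TSS of *Fntb*, a farnesyltransferase subunit. Of protein-coding genes 61.2% had a nearer peak. At the *Max* start the observed to expected CpG ratio was 0.775.

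The 3 Mxd repressors of the list, which are known for their rise as cells leave the cell cycle in the case of *Mxd1* and *Mxd4* and for expression in cycling progenitors in the case of *Mxd3*, had no peak in or at the gene. *Mxd1* (chr6:86647042-86669161, minus strand) was 77467 bp, and from its gene start 83523 bp, from a 1564-bp peak at chr6:86584075-86585638. That interval, wider than 99.0% of peaks, overlapped no gene, and the closest TSS was that of Gm44369 at 5792 bp. *Mxd3* (chr13:55325168-55329823, minus strand) was 32672 bp from a 364-bp peak over the TSS of *Lman2*, upstream of it. *Mxd4* (chr5:34173883-34187720, minus strand) was 5581 bp from a 339-bp peak (chr5:34169417-34169755) over the TSS of *Haus3*. From the start of *Mxd4* itself, rather than from an internal TSS, this peak was 17965 bp away.

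*Mlx* (chr11:101087277-101092207, plus strand) was 5817 bp from a 368-bp peak (chr11:101095479-101095846) that lay 43 bp from the TSS of *Psmc3ip*. This distance was to the TSS of a noncoding transcript inside *Mlx*, and from the gene start it was 8202 bp. *Mga* (chr2:119897228-119969581, plus strand), a large protein with both a T-box and a helix-loop-helix domain, was 11706 bp from a 528-bp peak (chr2:119972111-119972638), which lay 61 bp from the TSS of *Mapkbp1*. The distance at *Mga* was to the start of a transcript with a retained intron near the end of the gene, and from the gene start it was 74883 bp. For *Mlx*, *Mga*, *Mxd3*, *Mxd4*, *Mycn* and *Max* the nearest peak was thus at or next to the start of another gene. That of *Myc*, 262 bp from the TSS of the noncoding Gm27782, was also close to one.

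**Figure D4:**
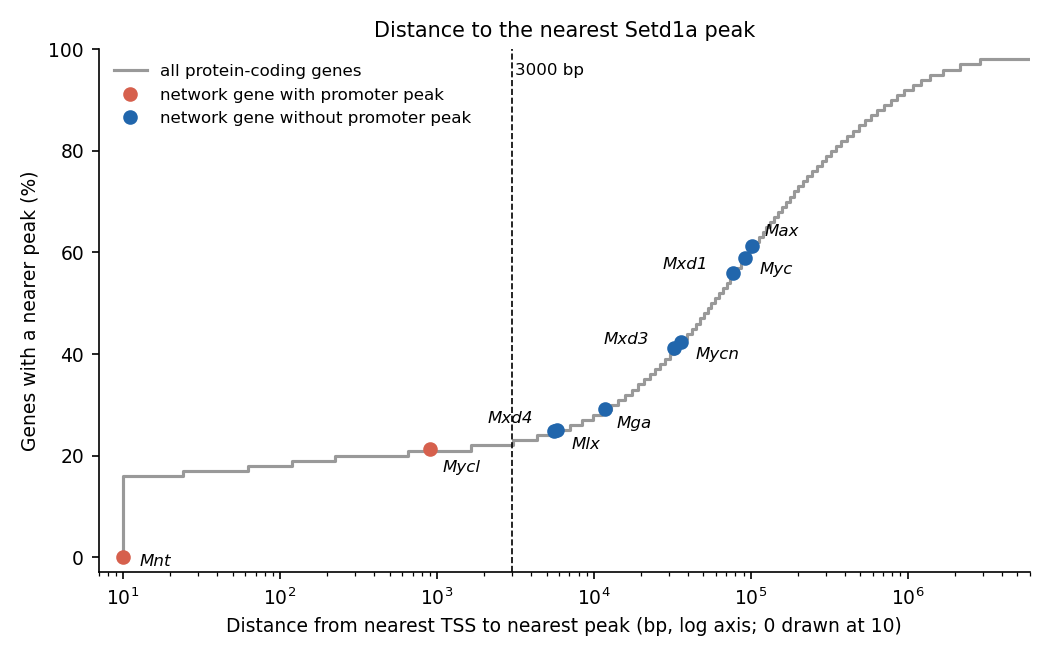
Share of protein-coding genes with a peak nearer than a given distance (vertical axis, %) against the distance from the nearest TSS to the nearest peak in bp (horizontal log axis, with a distance of 0 drawn at 10), as a grey step line, with the 10 network genes as points and the 3000-bp promoter window as a dashed line. Mnt (0 bp) and Mycl (906 bp) lie inside the window, the other genes run from Mxd4 at 5581 bp to Max at 101929 bp.

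Within 500 kb on each side of the gene, the 10 genes had between 1 and 12 peaks. *Mnt* had 9, its own 2 included. *Mxd4* had 12, *Mxd1* and *Mxd3* 11 each, *Mlx* 8, *Mga* 6, *Max* 5 and *Mycl* 4. *Mxd4*, *Mxd3*, *Mlx* and *Mxd1*, which had no peak themselves, had peaks at other genes around them. Over all protein-coding genes 23.0% had a promoter peak, and nothing is read from how the counts below compare with it. Around *Mxd4* 12 of 19 other protein-coding genes had a promoter peak, around *Mxd3* 9 of 30, around *Mlx* 13 of 48, around *Mxd1* 5 of 17, and around *Mga* 7 of 23. Around *Mnt* 8 of 17 had one, around *Max* 2 of 8 and around *Mycl* 2 of 15.

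CpG content moved with peaks across all genes. When protein-coding genes were split into 5 equal classes by observed to expected CpG within 500 bp on each side of the gene start, 2.78%, 7.39%, 18.9%, 36.9% and 48.8% of them, from the lowest class to the highest, had a promoter peak. All 10 network genes fell in the top 2 classes. *Myc*, *Mycn*, *Mycl*, *Max* and *Mlx* were in the fourth and *Mnt*, *Mxd1*, *Mxd3*, *Mxd4* and *Mga* in the fifth. Their starts had a median ratio of 0.796 and a median of 62.7% GC, beside 0.552 and 54.7% over all protein-coding genes. *Mga* had the highest ratio of the 10 (0.873), then *Mxd4* (0.848), *Mxd1* (0.834) and *Mxd3* (0.825), and none of these 4 had a peak, whereas *Mnt* stood at 0.815. In each of the 5 classes fewer genes had a promoter peak than lacked one. Why some network genes had a peak and others had none was not tested.

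**Figure D5:**
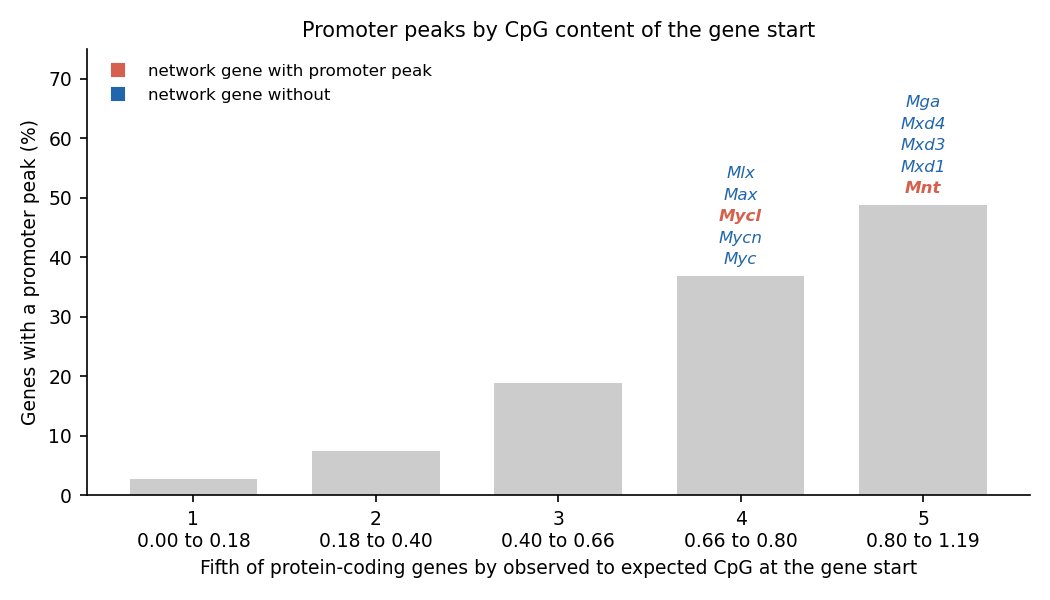
Share of protein-coding genes with a promoter peak (vertical axis, %) in 5 equal classes by observed to expected CpG at the gene start (horizontal axis, with the range of each class), with the network genes written above the bar of their class. The share ran from 2.78% to 48.8%, and all 10 genes stood above the bars of the top 2 classes, with Mycl and Mnt (bold) as the genes with a promoter peak.

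E-boxes also occurred in network promoters without a peak. RefSeq promoters of GRCm38.p6, from 250 bp before to 50 bp after the start, matched 9 of the 10 genes. CACGTG was present in 4 of the 9, those of *Mnt*, *Max* (at -3 bp from the RefSeq start), *Mlx* (-40) and *Mxd4* (-219), of which the *Mxd4* site is printed above. Among all 32851 RefSeq promoters 7.15% held it. GGGCGG was present in those of *Mnt* (4 sites), *Mxd3* (8), *Mxd1* (6), *Mycn* (2), *Mycl*, *Mxd4* and *Mga* (1 each), and in 35.7% of all promoters. Promoters with E-boxes or GC boxes therefore occurred among network genes both with and without a peak. Both motifs contain CpG, and the set of all promoters is not matched to network genes in CpG content. The difference in shares was not tested.

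The partners of Max and Mlx outside the list were measured in the same way, and 2 of 3 had a promoter peak. *Mlxip*, a glucose-sensing partner of Mlx, had a peak of 651 bp (chr5:123394346-123394996) over 2 of its TSSs, from -452 to 198 bp relative to the gene start. The ratio of observed to expected CpG was 0.788, and 1 CACGTG was present. The peak also overlapped Gm15747, and Gm42907 had a TSS within 3000 bp of it. Of the length of this peak, 30.6% was inside *Mlxip*. *Mxi1*, the remaining Mxd repressor, had a peak of 495 bp (chr19:53314071-53314565) inside the gene, 1005 bp past the TSS of its second transcript by position and 3553 bp past the gene start. *Mlxipl*, the liver-rich paralog of *Mlxip*, had none, with its nearest peak 15280 bp from a TSS. *Mxi1* was thus the Mxd repressor with a peak, and by its first TSS alone that peak would fall outside the window.

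Of 60 genes whose products work with the network or that it controls, listed from general knowledge, 30 had a promoter peak, beside 23.0% of protein-coding genes. The lists were made with earlier results of these data known. They are not matched to all genes in CpG content or expression, and the difference was not tested. Of the 12 coactivators and cofactors of Myc, 7 had a promoter peak. The widest were at *Ccnt1* (2025 bp) and *Cdk9* (1442 bp), which encode the pair of subunits of the elongation kinase P-TEFb, then at *Ep400* (635 bp), a chromatin remodeller, and *Hcfc1* (607 bp), a cofactor of Myc and a subunit of Setd1a complexes. The *Ccnt1* interval also overlapped the gene 9330020H09Rik. The *Hcfc1* peak lay outside the gene, 676 bp from its nearest TSS. *Kat2a*, *Ruvbl1*, *Ruvbl2* and *Zbtb17* were among those without a promoter peak.

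Of the 7 corepressors through which Mxd and Mnt act, 3 had a promoter peak. *Sin3a*, the scaffold that Mxd and Mnt bind directly, had 3 peaks, the widest of 1631 bp, *Hdac2* one of 869 bp and *Sin3b* one of 273 bp, whereas *Hdac1*, *Sap30*, *Sap18* and *Ncor1* had none. Of the 9 partners of Mga in the Polycomb complex PRC1.6, 4 had one, namely *Cbx3* (1107 bp), *Rnf2* (638 bp), *Rybp* (493 bp) and *Wdr5* (301 bp), the last also a Myc cofactor and a subunit of Setd1a complexes. *E2f6*, *L3mbtl2*, *Pcgf6*, *Ring1* and *Tfdp1* had none, and at *Ring1* a peak lay just outside the window at 3069 bp.

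Of the 10 genes for turnover of Myc protein, 6 had a promoter peak. *Gsk3b* (1336 bp) encodes the kinase that marks Myc for degradation and *Fbxw7* (1210 bp) the ubiquitin ligase subunit that reads this mark. *Aurka* (892 bp) encodes a kinase that stabilises Mycn, and *Stub1* (839 bp) a ubiquitin ligase. The peaks of *Fbxw7* and *Aurka* lay outside the gene, 456 and 106 bp from the nearest TSS. *Skp2*, *Huwe1*, *Usp28* and *Usp7* had no promoter peak. Of 20 known Myc targets, 9 had a promoter peak, the widest at *Ncl* (1299 bp), *Hspd1* (987 bp), *Cdk4* (761 bp) and *Npm1* (668 bp), genes of the nucleolus, of mitochondrial protein folding and of the cell cycle. The remaining 11 targets had none.

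Markers of cell types were read in the same list. Over all protein-coding genes 23.0% had a promoter peak. The marker lists are short and not matched in CpG content, so nothing is read from how their counts compare. Of 8 neural stem cell markers 5 had a promoter peak (*Sox2*, *Nes*, *Vim*, *Pax6* and *Gfap*), and *Hopx*, *Fabp7* and *Slc1a3* had none. None of 4 neuronal and none of 3 microglial markers had one, and of 4 markers of the oligodendrocyte lineage *Pdgfra* did. *Slc1a3*, the neuronal *Syt1* and the microglial *Cx3cr1* had peaks in the gene but outside the promoter window. A peak is not a measure of expression, so neither the identity of the cells nor the activity of the network genes can be read from these counts. No peaks from the IgG library were analysed here, and its signal at *Mnt* and *Mycl* was not measured.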

How the data were processed

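Setd1a CUT & RUN was performed on quiescent adult NSCs, with 2 Setd1a libraries and 1 IgG library. The submitters' processing notes name bcl2fastq 2.17.1.14, Trimmomatic 0.32, Bowtie2 2.1.0, SAMtools 0.1.18, MACS2 2.2.8 and mm10. The authors kept trimmed reads that mapped to a unique place with good quality and called peaks in each replicate at default settings. The deposited file is 1 list with the start and end, in bp, of peaks present in both replicates, without height or p-value. Per the methods, the peaks of the replicates were intersected. Whether IgG served as control in calling, and whether an interval is the overlap of both peaks or 1 of them whole, is not given in the sources used here. A missing peak means its absence from this list only, and repeats without unique reads could not give one.

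Positions were read as 1-based with both ends included, and could be off by 1 bp. Peaks were set against GENCODE M21 transcripts and the GRCm38 sequence (21 chromosomes, 0 peaks past an end) with Python 3.11.15, numpy 2.4.6 and pysam 0.24.0, and plotted with matplotlib 3.10.9. Motifs were searched on both strands, for shares over all peaks in their central 300 bp. Assignment of peaks to TSSs was tested on simulated intervals, and motif counting on short made-up sequences. Distances to the nearest peak were not part of this test. No test between groups was run, because the list holds 1 set of intervals. The network genes and the related lists were chosen with earlier results of these data known. By the rule for naming, all 10 genes, *Mxi1*, *Mlxip* and *Mlxipl* are described, and of each related list up to 4 genes with the widest promoter peaks, and those without one where there are at most 5. By name, 1 gene of these lists is not reported here. The distance at *Ring1* and the genes at the widest intervals were added after their values were seen. Alternatives changed the window, TSS set, assignment, minimum width, merging and sequence window. No per-sample column was left unused.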

Additional observations from a re-analysis of the deposited data

How the results depend on the processing

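Of 51 alternatives over 11 results, 34 left the result within its limits and 17 moved it. The limits differed by kind of result. They were a fold change for counts and widths and the confidence interval of the main value for percentages. For the CpG ratio the limit was the standard deviation over the network genes. Percentages over many genes or peaks moved at small differences, so the tally is not a single measure of robustness. Whether a result turned its direction was not evaluated, since counts, shares and widths have none. *Mnt* and *Mycl* were the network genes with a promoter peak under windows of 1000, 2000 and 5000 bp, with protein-coding or basic transcripts, with each peak given to its nearest TSS, and with peaks within 1000 bp merged. With peaks of at least 300 bp the count was 1 for promoters and 1 for genes, since the *Mycl* peak drops out. RefSeq transcripts, an alternative chosen after seeing the data, gave the same genes, 2 with a promoter peak and 1 over a TSS. The width at *Mnt* was 2836 bp in each alternative run, but of these only merging could have changed it. Related genes with a promoter peak ranged from 26 to 32.

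The share of protein-coding genes with a promoter peak was 21.4% at 1000 bp, 22.2% at 2000 bp, 24.5% at 5000 bp, 22.2% with protein-coding and 21.9% with basic transcripts, 18.2% by nearest TSS and 20.2% with peaks of at least 300 bp. The share with a peak over a TSS was 15.4% with protein-coding transcripts, 14.8% with basic transcripts and 15.0% with peaks of at least 300 bp, and the share with a peak in the gene was 20.1% with the last. CACGTG was present at 2 network genes over whole peaks and at 1, *Mycl*, over the central 300 bp. Over all peaks its share was 12.9% in whole peaks and 5.24% in the central 200 bp. The median CpG ratio at network starts was 0.710 with 1000 bp on each side.

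No paired analysis was possible because replicates are already combined in the intervals, and leaving out a replicate was not possible either. Depth is unknown, so a peak below the caller's threshold in either library cannot be told apart from no binding.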
